A study of Homo sapiens with 4 samples.

Results

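The genes described here are the mitochondrial carriers of the SLC25 family. They were chosen by name: every line of the authors' deposited table whose gene begins with SLC25A, with SLC25A1 and SLC25A20 left out. This gave 157 regions beside 41 genes, of 91107 distinct regions beside 17301 genes in all. Each region is a stretch of chromatin carrying H3K27ac, histone H3 acetylated at lysine 27, which is found at active promoters and enhancers. The mark was mapped by immunoprecipitation of chromatin followed by sequencing. The cells were A375, a long-established line from a human melanoma, with no genetic change named in the labels. Of the 4 libraries, 2 came from cells given vehicle (isopropanol) and 2 from cells treated with 1 mM octanoate, a fatty acid of medium chain length, with 48 hours of treatment in both groups. No label says whether the libraries of a group came from separate cultures, so the errors given may be technical only.

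The authors' deposited table holds 1 comparison: per region, the log2 fold change with its standard error, the p-values and the mean level, without values for single libraries. Its header does not say which group is the numerator, so a change is called positive or negative, and neither is read as a gain with octanoate. The mean level is in the authors' normalized units, and the depth of each library is unknown. Coordinates are those of the table, and the submitters' processing notes name the build hg38. Gene names and distances are the authors' assignments and do not show that a region acts on the gene. The distance runs in bases from region to gene start and is negative where the start has the lower coordinate. Regions over the starts of the melanocyte genes SOX10 and PMEL had mean levels of 774 and 269 in the authors' deposited table, and that over the MITF start 98.4. MLANA and TYR, also melanocyte genes, had no region over a start in the authors' deposited table, so the markers of this lineage were not uniform. Among genes of other lineages, ALB had no region in the authors' deposited table, and CD3E and PTPRC had none over a start. The region over the start of EPCAM, an epithelial gene, had a level of 50.5 in the authors' deposited table. Regions away from the start but named with PTPRC, a leukocyte gene, reached 408 in the authors' deposited table, so a gene name beside a distant region is no sign of lineage.

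SLC25 proteins sit mostly in the inner mitochondrial membrane and carry nucleotides, phosphate, amino acids, carboxylates, cofactors and metals between cytosol and matrix. They are encoded in the nucleus, so the promoters examined here are ordinary nuclear promoters. The family includes the ADP/ATP carriers, which export the ATP made by oxidative phosphorylation, and the aspartate/glutamate carriers of the malate-aspartate shuttle. Octanoate can enter the matrix largely without the carnitine carrier and is oxidised there.

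The stretch of 250 bases before the RefSeq start (GRCh38.p14) was read for the 34 of the 41 genes that the promoter table holds, with 44 windows because some genes have several starts. For 29 of the 35 genes with a region at distance 0 in the authors' deposited table, read as overlap with a gene start, the promoter table holds a window, and in all 29 the region covered a RefSeq start. The 6 windows printed here belong to genes the results turn on. They are the ADP/ATP carriers SLC25A4 (chr4:185143016-185143265, plus strand) and SLC25A5 (chrX:119468194-119468443, plus), and SLC25A23 (chr19:6459793-6460042, minus) and SLC25A39 (chr17:44324824-44325073, minus), with larger positive estimates at their starts. SLC25A33 (chr1:9539215-9539464, plus) had the largest change of the 68 tested regions, inside the gene, and SLC25A38 (chr3:39383120-39383369, plus) a change near 0. Capitals mark matches to the motifs searched.
SLC25A4: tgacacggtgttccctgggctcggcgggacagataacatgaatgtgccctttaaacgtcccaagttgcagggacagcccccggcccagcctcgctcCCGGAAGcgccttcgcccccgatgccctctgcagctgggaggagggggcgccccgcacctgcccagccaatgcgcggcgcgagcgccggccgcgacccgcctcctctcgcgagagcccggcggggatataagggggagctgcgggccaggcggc
SLC25A5: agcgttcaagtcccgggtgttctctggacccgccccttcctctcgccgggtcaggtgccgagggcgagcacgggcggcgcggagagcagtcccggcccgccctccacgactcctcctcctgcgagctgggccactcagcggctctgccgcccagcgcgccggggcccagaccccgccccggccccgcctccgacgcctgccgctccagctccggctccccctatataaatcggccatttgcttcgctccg
SLC25A23: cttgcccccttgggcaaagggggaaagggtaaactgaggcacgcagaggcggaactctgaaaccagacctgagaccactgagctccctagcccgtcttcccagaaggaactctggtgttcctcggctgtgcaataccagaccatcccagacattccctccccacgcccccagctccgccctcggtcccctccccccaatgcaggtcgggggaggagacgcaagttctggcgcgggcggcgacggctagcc
SLC25A39: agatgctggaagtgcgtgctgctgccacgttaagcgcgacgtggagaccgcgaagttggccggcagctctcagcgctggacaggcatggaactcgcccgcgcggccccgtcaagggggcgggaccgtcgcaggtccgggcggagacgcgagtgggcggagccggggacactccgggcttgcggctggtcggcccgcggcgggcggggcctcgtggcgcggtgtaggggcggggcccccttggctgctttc
SLC25A33: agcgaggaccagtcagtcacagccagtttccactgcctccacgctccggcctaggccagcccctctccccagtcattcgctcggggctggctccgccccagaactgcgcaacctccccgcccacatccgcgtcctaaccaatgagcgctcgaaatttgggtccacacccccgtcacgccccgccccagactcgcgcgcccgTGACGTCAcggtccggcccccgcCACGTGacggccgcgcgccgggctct
SLC25A38: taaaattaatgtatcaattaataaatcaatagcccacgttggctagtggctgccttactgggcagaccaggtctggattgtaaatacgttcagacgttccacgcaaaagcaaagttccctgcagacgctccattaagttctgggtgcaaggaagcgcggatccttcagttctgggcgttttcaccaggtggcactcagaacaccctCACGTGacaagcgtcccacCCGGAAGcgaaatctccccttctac

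Both strands were searched for exact letters. The ETS motif CCGGAAG was in 9 of the 44 windows (20.5%) and in 8.52% of all 35116 windows of the promoter table, which include those of noncoding genes. The E-box CACGTG, which MITF among others binds, was in 7 windows (15.9%) against 6.34% of all, and the CREB motif TGACGTCA in 3 (6.82%) against 1.65%. No window held the NRF1 motif GCGCATGCG (1.64% of all windows), the ERR motif TCAAGGTCA (0.319%), the YY1 motif AAGATGGCG (0.652%) or the PPAR motif DR1, the hexamer AGGTCA repeated after any base (0.0171%). The ERR motif holds the hexamer of DR1, and otherwise no motif contains another. Among the printed windows, SLC25A4 held an ETS match from -154 to -148 relative to the start. SLC25A33 held a CREB match from -49 to -42 and an E-box from -26 to -21, and SLC25A38 an E-box from -44 to -39 and an ETS match from -25 to -19. SLC25A5, SLC25A23 and SLC25A39 held none of these letters in the window. These are matches of letters only, and no binding was measured.

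The family as a whole lay where the rest of the table lay. The authors' adjusted p-value was present for 68 of the 157 regions in the authors' deposited table (43.3%, against 40.0% of all regions), and the other 89 had mean levels of at most 17.2. None of the 68 regions passed an adjusted p-value of 0.05 in the DESeq2 results of the authors' deposited table, in which 1.67% of all 36436 tested regions passed. An unadjusted p-value under 0.05 with a positive change was found for 8 of the 68 (11.8%) in the authors' deposited table, where the share among all tested regions was 17.9%. With a negative change there were 0 of the 68, against 0.475% of all tested regions. The median log2 fold change of the 68 regions in the authors' deposited table was 0.32 (95% interval over regions 0.263 to 0.373, quartiles 0.185 and 0.459), and that of all tested regions 0.32 (quartiles 0.148 and 0.503). Positive changes made up 60 of the 68, or 88.2% (95% Wilson interval 78.5 to 93.9%), and 87.3% of all tested regions in the authors' deposited table. These intervals cover variation among regions and not between libraries. Over all 91107 regions, tested or not, the median was 0.28. The median of all tested regions is called the shared shift below, and whether 1 shift applies to every region was not tested. In the sentences that follow, each change is therefore also read against the median of 0.32, a ratio of 1.25.

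**Figure D1:**
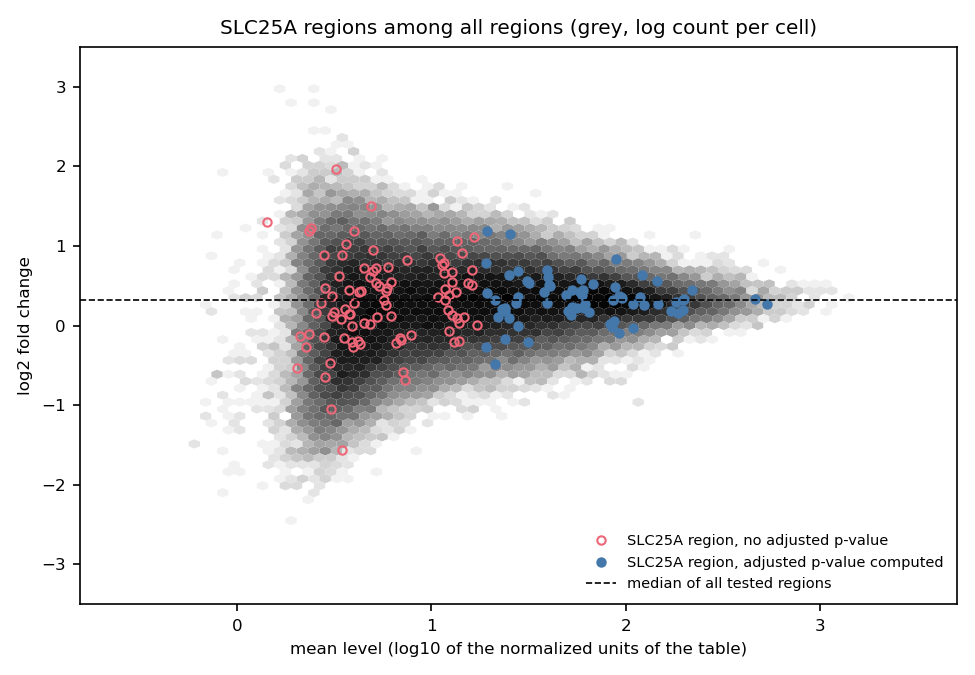
Log2 fold change (vertical) against the log10 of the mean level (horizontal) for SLC25A regions (points) over all 91107 regions of the table (grey cells, darker for more regions). Filled points are the 68 regions with an adjusted p-value and open points the other 89, and the filled points lie on both sides of the dashed median of all tested regions.

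Of the 41 genes, 35 had a region over the start. Their mean levels ran from 27.8 for SLC25A43, a carrier of unknown substrate, to 537 for SLC25A11, the oxoglutarate/malate carrier, in the authors' deposited table. The SLC25A11 region (chr17:4938276-4952010) was also the widest of the family at 13734 bases and was listed with ENO3, PFN1 and RNF167 as well, so its level is not that of a single promoter. Per kilobase of region, levels over starts in the authors' deposited table lay between 14.7 for SLC25A27 and 39.1 for SLC25A11. In all, 9 of the 35 regions over starts were listed with another gene too, among them those of SLC25A45 with FRMD8, SLC25A32 with DCAF13, SLC25A40 with DBF4, SLC25A25 with NAIF1 and SLC25A27 with CYP39A1. For these the change belongs to the shared region and cannot be assigned to either gene.

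At the starts, 33 of the 35 regions had a positive change in the authors' deposited table (94.3%, 95% Wilson interval 81.4 to 98.4%), where 98.1% of all tested regions over starts were positive. The median was 0.33, and 0.35 over all starts in the authors' deposited table. Changes ran from -0.03 to 0.70, with 18 regions higher and 17 lower than the median of the whole table. The 95% interval from the authors' standard error left out 0 for 5 of the 35 regions (14.3%), and for 19.2% of all tested regions over starts. It held the median of all tested regions for all 35, and left that median out for 1.66% of all tested regions over starts. No change at a start was therefore distinguishable from the median of all tested regions.

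**Figure D2:**
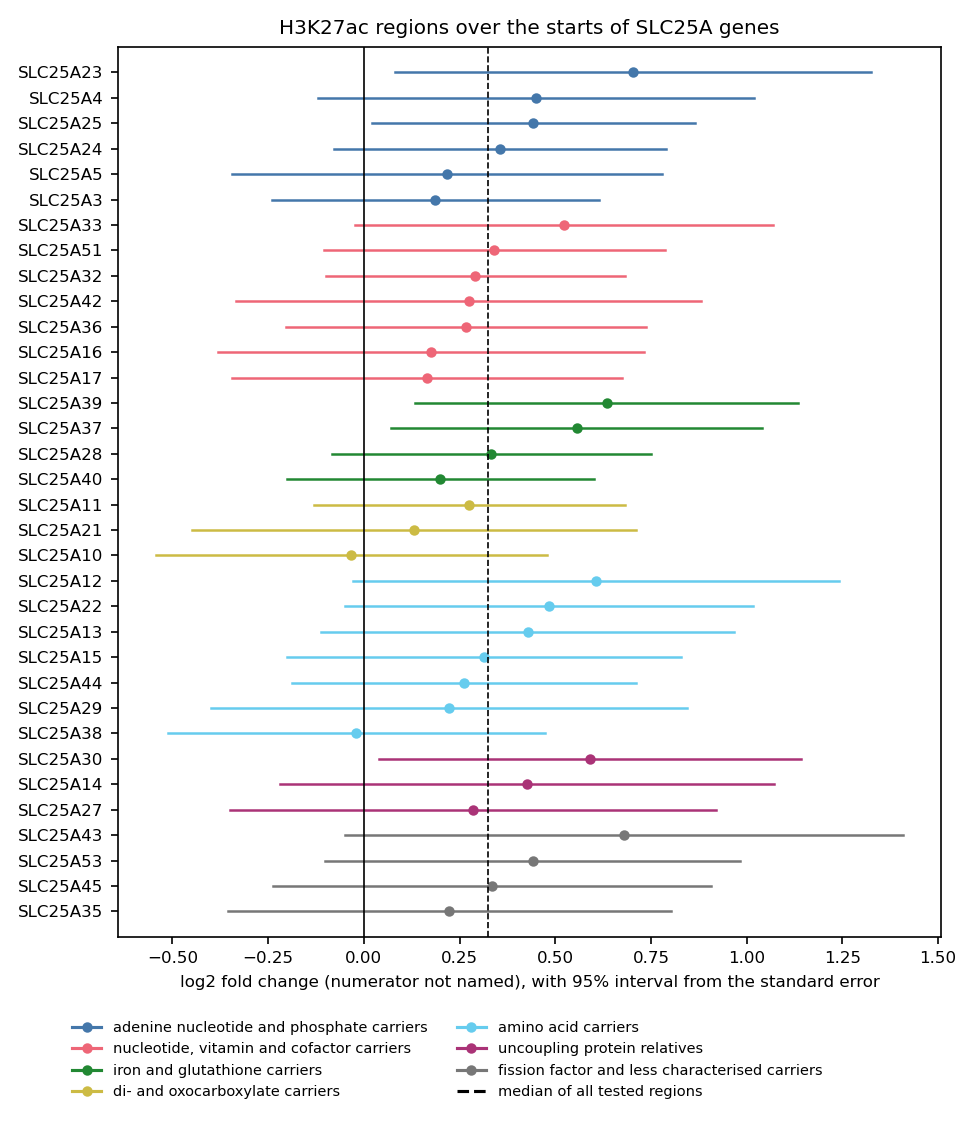
Log2 fold change of the region over the start of SLC25A genes (points) with its 95% interval (lines), in colours by group; 1 of the 35 is not drawn. The solid line marks 0 and the dashed line the median of all tested regions, 0.32, which lies inside every interval drawn. The intervals of SLC25A23, SLC25A25, SLC25A37, SLC25A39 and SLC25A30 leave out 0.

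Among the adenine nucleotide and phosphate carriers, 7 of the 9 listed genes had regions, and 12 of their 30 regions had an adjusted p-value. Of these 12 regions 11 were positive and 0 passed in the authors' deposited table, with a median of 0.42, and 4 of the 12 had an unadjusted p-value under 0.05, which 17.9% of all tested regions had with a positive change. With 12 regions beside few genes, nothing particular to the group is read from this. The median lay between 0.38 and 0.45 when any 1 gene was left out. SLC25A3, the phosphate carrier that feeds ATP synthase, had 0.19 ± 0.22 (standard error) over its start (chr12:98592526-98597957) in the authors' deposited table, at a mean level of 171. The calcium-regulated ATP-Mg/phosphate carriers SLC25A23, SLC25A24 and SLC25A25 had 0.70 ± 0.32, 0.36 ± 0.22 and 0.44 ± 0.21 over their starts in the authors' deposited table. The SLC25A23 region (chr19:6459165-6461194) had the largest change over any start among the 35 genes chosen by name, with an adjusted p-value of 0.218 in the DESeq2 results of the authors' deposited table, and it lay 0.38 above the median of all tested regions. SLC25A41, a relative of these, had only a region 7390 bases from its start, with 0.41 ± 0.41 in the authors' deposited table. SLC25A24 also had a weakly marked region 92253 bases away (chr1:108107126-108108597) with 1.06 ± 0.48 in the authors' deposited table, without an adjusted p-value. A tested region named with SLC25A25 at distance -24889 had -0.01 ± 0.36 in the authors' deposited table.

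SLC25A4 encodes the ADP/ATP carrier of heart and skeletal muscle, ANT1, and was the member with the smallest p-values. Its region 28953 bases before the start (chr4:185110204-185114288, 4084 bases wide) had a log2 fold change of 0.84 ± 0.25 in the authors' deposited table at a mean level of 89.2, a ratio of 1.79. In the authors' deposited table its unadjusted p-value was 0.000869 and its DESeq2 adjusted p-value 0.0504, just outside the threshold. A second region 14461 bases before the start (chr4:185127842-185128780) had 1.15 ± 0.38 and a DESeq2 adjusted p-value of 0.0825, as given in the authors' deposited table. Over the start itself (chr4:185142710-185145197) the change in the authors' deposited table was 0.45 ± 0.29. These regions before the gene thus had larger estimates than the promoter, with intervals that overlap that of the promoter. With the median of all tested regions subtracted, they were 0.52 and 0.82, with adjusted p-values of 0.824 and 0.747 from the authors' standard errors, so neither passed 0.05.

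All 10 regions named with SLC25A4 in the authors' deposited table had a positive change, from 0.01 to 1.19 with a median of 0.77, although 7 of them were too low for an adjusted p-value. The family had 4 genes with at least 10 regions, and of 2675 such genes among all genes, 143 (5.35%) had positive changes only. Regions beside 1 gene share their neighbourhood and are not independent, and this stretch was singled out after its values were seen. The regions before this stretch were named with HELT, a helix-loop-helix transcriptional repressor active in neural development. All 4 were positive in the authors' deposited table (median 1.02), where 67103 of all 91107 regions, tested or not, were positive. On the other side, 4 of the 8 regions named with CFAP97 were positive and 4 negative in the authors' deposited table (median 0.07). The highest change of these 8 in the authors' deposited table was 0.55, while it was 1.27 among those named with HELT and 1.19 among those named with SLC25A4. Each of these highest values came from an untested region, and most CFAP97 regions were also too low to be tested. The tested CFAP97 regions had 0.33 ± 0.24 over the start of that gene and -0.01 ± 0.39 at distance 30563. Tested HELT regions had 1.01 ± 0.35 over the start and 1.04 ± 0.39 at distance -20162. Whether the changes differ between the sides of SLC25A4 was not tested.

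**Figure D3:**
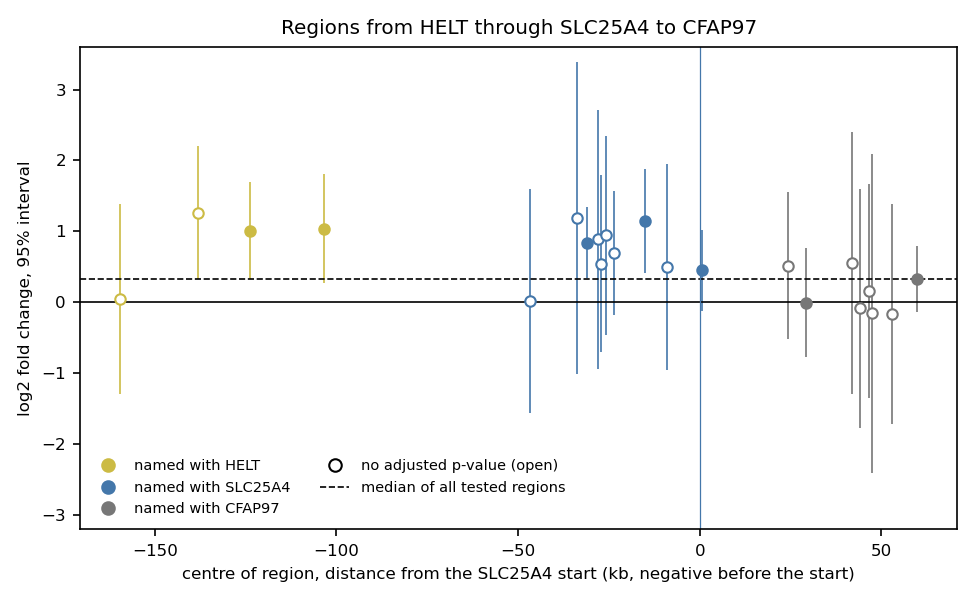
Log2 fold change with 95% interval (vertical) of the regions named with HELT, SLC25A4 and CFAP97, by the distance of their centres from the SLC25A4 start in kilobases (horizontal). Open points had no adjusted p-value; the points before the start lie above 0, and those past it lie on both sides of it.

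SLC25A5 encodes ANT2, the ADP/ATP carrier of proliferating cells. Of all 91107 regions, tested or not, 67103 were positive in the authors' deposited table. All 7 SLC25A5 regions were positive, from 0.12 to 0.89. Only 2 of them were tested, and nothing particular to the gene is read from this count. Its start (chrX:119467700-119470615) had 0.22 ± 0.29 at a mean level of 60.7. The SLC25A4 start had nearly the same level, 60.5, in the authors' deposited table. The difference between both starts, SLC25A4 minus SLC25A5, was 0.23 (95% interval -0.57 to 1.03), computed from the authors' deposited table with the errors taken as independent. The same difference was taken for 8 pairs of related carriers, and all 8 intervals held 0. Besides the pairs given with their groups, SLC25A23 minus SLC25A24 was 0.35 (95% interval -0.41 to 1.11), SLC25A23 minus SLC25A25 0.26 (-0.49 to 1.01) and SLC25A30 minus SLC25A14 0.16 (-0.68 to 1.01), from the authors' deposited table. These intervals are wide and do not show that the members of a pair changed alike. No region carried the names SLC25A6 or SLC25A31, the other ADP/ATP carriers, and these are not analysed here.

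The carriers of nucleotides, vitamins and cofactors had 38 regions beside all 10 listed genes, 19 of them with an adjusted p-value, of which 17 were positive and 0 passed in the authors' deposited table. Their median was 0.27, with 6 of the 19 above the median of all tested regions. SLC25A33, a pyrimidine nucleotide carrier, had 12 regions, of which 7 had an adjusted p-value. A region inside this gene, at distance -15611 (chr1:9555092-9556247), had 1.19 ± 0.41 in the authors' deposited table at the low mean level of 19.3. The adjusted p-value from DESeq2 was 0.101 in the authors' deposited table, and 0.784 after the median was subtracted. The start of SLC25A33 had 0.52 ± 0.28, while 4 tested regions between 94581 and 109504 bases away had -0.09, 0.06, 0.09 and 0.38 in the authors' deposited table. The tested regions assigned to this 1 gene thus ran from a negative change to the largest positive one among the 68 tested SLC25A regions. Its relative SLC25A36 had 0.27 ± 0.24 over its start in the authors' deposited table, lower than SLC25A33 by a difference of 0.26 (95% interval -0.47 to 0.98).

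Over their starts, SLC25A51, the mitochondrial NAD carrier, had 0.34 ± 0.23, SLC25A42, a coenzyme A carrier, 0.27 ± 0.31, and SLC25A32, which carries folate or FAD, 0.29 ± 0.20 in the authors' deposited table. SLC25A16, linked to coenzyme A, had 0.18 ± 0.28 and SLC25A17, a peroxisomal carrier of coenzyme A and other cofactors, 0.17 ± 0.26 in the authors' deposited table. SLC25A26, which brings S-adenosylmethionine into the matrix, had 1 region, with 0.23 ± 0.30 in the authors' deposited table. The table lists this region 21164 bases from the gene's start, but it covers a RefSeq start of SLC25A26. SLC25A52, close in sequence to SLC25A51, had 3 regions with mean levels of at most 12.8 in the authors' deposited table and none with an adjusted p-value.

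The iron and glutathione carriers comprised 4 genes with 16 regions, 6 of them tested. All 6 tested regions were positive and 0 passed in the authors' deposited table, with a median of 0.44. Of all tested regions 87.3% were positive, and with 6 regions nothing particular to the group is read from this. SLC25A39, needed for import of glutathione, had 0.63 ± 0.26 over its start (chr17:44323167-44327416) at a mean level of 121 in the authors' deposited table. Its unadjusted p-value of 0.013 was the smallest over any start among these 35 genes (SLC25A1 and SLC25A20 left out), and the adjusted p-value that DESeq2 gave it was 0.17 in the authors' deposited table. Its paralogue SLC25A40 had 0.20 ± 0.20 in the authors' deposited table, and the difference between them, 0.44 (95% interval -0.21 to 1.08), was the largest of the 8 pairs. SLC25A37 and SLC25A28, the mitoferrins that bring iron into the matrix, had 0.56 ± 0.25 and 0.33 ± 0.21 over their starts in the authors' deposited table, a difference of 0.22 (95% interval -0.42 to 0.86). SLC25A37 also had a region of 10872 bases in or near the gene, at distance -9276, with 0.32 ± 0.23, and another at distance -31258 with 0.56 ± 0.33 in the authors' deposited table.

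The carboxylate carriers had the lowest median of the 7 groups. Of their 19 regions 5 were tested, of which 3 were positive and 2 negative in the authors' deposited table, with a median of 0.13 and 0 above the median of all tested regions. SLC25A10, the dicarboxylate carrier, had the lowest change over any of these starts, -0.03 ± 0.26 (chr17:81710234-81714043) at a mean level of 109 in the authors' deposited table. SLC25A11 had 0.27 ± 0.21 and SLC25A21, the oxodicarboxylate carrier, 0.13 ± 0.30 over their starts in the authors' deposited table. SLC25A21 had 15 regions, the most of any member, of which 8 were positive and 7 negative in the authors' deposited table. Of all 91107 regions, tested or not, 67103 were positive. The SLC25A21 regions ran from -1.56 to 1.51, but both extremes came from regions with no adjusted p-value, at mean levels of 3.48 and 4.87. The tested SLC25A21 regions at distances 54289 and 49393 had -0.21 ± 0.31 and 0.32 ± 0.37 in the authors' deposited table. With 5 tested regions, each with an interval that reached past 0, no group difference can be read from these values.

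Amino acid carriers had 37 regions beside 8 of 9 listed genes, 16 of them tested. Of these 13 were positive, 3 negative and 0 passed in the authors' deposited table, with a median of 0.29. An unadjusted p-value under 0.05 was found for 0 of the 16. Among all tested regions, 17.9% had one with a positive change and 0.475% with a negative change. With 16 regions, nothing particular to the group is read from this. The aspartate/glutamate carriers SLC25A12 (aralar) and SLC25A13 (citrin) had 0.61 ± 0.32 and 0.43 ± 0.28 over their starts in the authors' deposited table, a difference of 0.18 (95% interval -0.65 to 1.01). The other tested SLC25A13 regions, at distances 245283 and 22897, had 0.79 ± 0.45 and -0.17 ± 0.36 in the authors' deposited table. A region inside SLC25A12 (chr2:171797808-171799209) had 1.12 ± 0.44 in the authors' deposited table (unadjusted p-value 0.0116), at a mean level of 16.5 that left it without an adjusted one. SLC25A22, a glutamate carrier, had 0.48 ± 0.27 in a start region shared with another gene, and SLC25A15, the ornithine carrier, 0.31 ± 0.26 in the authors' deposited table. SLC25A18, the other glutamate carrier, had no region over its start, and its 1 tested region, inside the gene, had 0.35 ± 0.34 in the authors' deposited table. SLC25A29, a carrier of basic amino acids, had 4 tested regions with changes of 0.21, 0.22, 0.54 and 0.63 in the authors' deposited table. SLC25A44, which carries branched-chain amino acids, also had 4, of -0.27, 0.02, 0.26 and 0.27 in the authors' deposited table. SLC25A38, which serves glycine supply to haem synthesis, had only its start region (chr3:39382583-39386073), with -0.02 ± 0.25 at a mean level of 84.8 in the authors' deposited table.

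The relatives of the uncoupling proteins, SLC25A30, SLC25A14 and SLC25A27, had 0.59 ± 0.28, 0.43 ± 0.33 and 0.29 ± 0.32 over their starts in the authors' deposited table. Of their 6 regions 4 were tested, all 4 positive and 0 passed in the authors' deposited table. Of all tested regions 87.3% were positive, so nothing particular is read from such counts in this group or the next. SLC25A30 had an unadjusted DESeq2 p-value of 0.036 over its start. A broad region of 7714 bases 34520 bases from the SLC25A30 start had 0.15 ± 0.23 in the authors' deposited table. The last group, a fission factor and less characterised carriers, had 11 regions with 6 tested, all 6 positive and 0 passed in the authors' deposited table, with a median of 0.35. SLC25A43 had 0.68 ± 0.37, SLC25A53 0.44 ± 0.28, SLC25A45 0.34 ± 0.29 and SLC25A35 0.22 ± 0.29 over their starts in the authors' deposited table. SLC25A46, an outer membrane protein tied to mitochondrial fission, had 1 region by name, with a mean level of 2.85 in the authors' deposited table. A well marked region over its RefSeq start (chr5:110738036-110740342) was named with TMEM232 instead and had 0.49 ± 0.27 at a mean level of 70.5 in the authors' deposited table. SLC25A48 had 1 region with a level of 5.21 in the authors' deposited table, and SLC25A2, SLC25A34 and SLC25A47 had none under their names and are not analysed here.

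**Figure D4:**
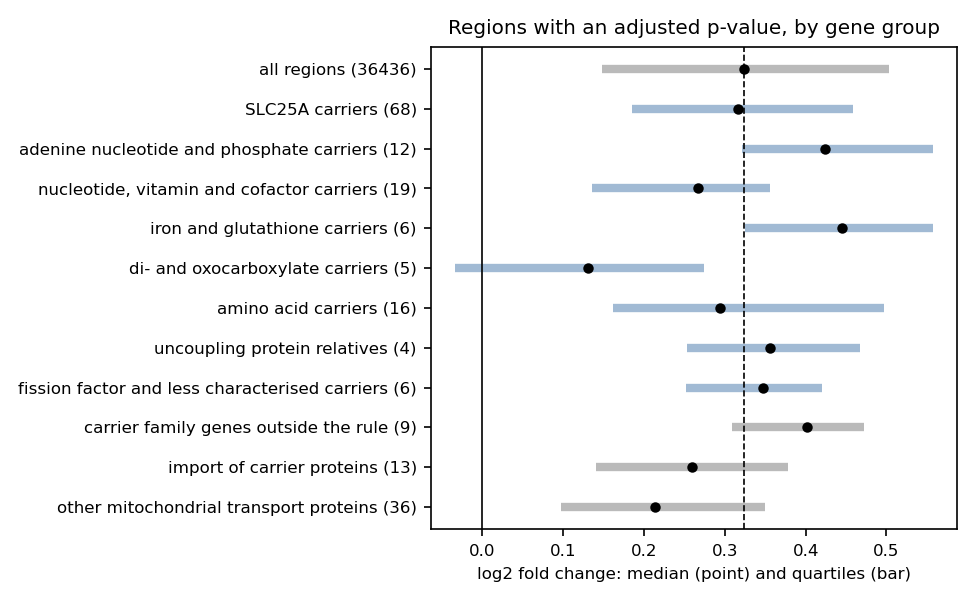
Median (points) and quartiles (bars) of the log2 fold change over regions with an adjusted p-value, by gene group, with the number of regions in brackets; blue bars are the SLC25A carriers and their 7 groups, grey bars all regions and related lists. The dashed line is the median of all tested regions, 0.32, and it meets the quartile bars of most groups, while the bar of the carboxylate carriers lies below it and that of the iron and glutathione carriers just above it.

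At listed distances other than 0, 122 regions had a median mean level of 7.42, against 84.8 for the 35 at distance 0 in the authors' deposited table. Over all regions these medians were 9.94 and 83.7. These 122 include the SLC25A26 region and 1 SLC25A25 region (chr9:128097682-128099955) that cover a RefSeq start. Of the 122, 33 had an adjusted p-value, 27 positive and 6 negative, with a median of 0.29, against 0.31 for all tested regions at such distances in the authors' deposited table. The difference of the medians, distance 0 minus others, was 0.04 and turned to -0.02 among regions with a mean level of at least 10, so it had no firm sign. The quartiles lay further apart at these distances, at 0.09 and 0.49 for tested regions, against 0.22 and 0.45 at distance 0 in the authors' deposited table. Over all tested regions they were 0.10 and 0.51 at such distances, against 0.24 and 0.49 at distance 0, so the widening was not particular to the family. The median standard error was also larger, 0.35 against 0.27 (0.31 against 0.25 over all tested regions), and what part of the spread it makes up was not tested. The 95% interval left out the median of the whole table for 4 of the 68 tested regions and for 5.72% of all tested regions, so the count is that of the background. Those with an interval above it were the pair before SLC25A4 and the region inside SLC25A33, none of them at distance 0.

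Related genes lay in the same range, and their counts of positive regions stand beside 87.3% positive among all tested regions. Carrier family genes outside the name rule had 9 tested regions, all 9 positive and 0 passed in the authors' deposited table, with a median of 0.40. The largest change among them was at the start of SLC25A20, the carnitine/acylcarnitine carrier, with 0.85 ± 0.27 and a DESeq2 adjusted p-value of 0.0746, as given in the authors' deposited table, and the citrate carrier SLC25A1 had 0.14 ± 0.24. A region named with UCP3, an uncoupling protein, had 0.82 ± 0.31 in the authors' deposited table. Genes for the import of carrier proteins into the inner membrane had 13 tested regions, with a median of 0.26. All 13 were positive and 0 passed in the authors' deposited table. TIMM22, the core of the inner membrane insertase, had 0.55 ± 0.24 in the authors' deposited table (DESeq2 adjusted p-value 0.204). Other mitochondrial transport proteins, such as the pyruvate carrier, the calcium uniporter, sideroflexins and VDAC channels, had 36 tested regions, of which 30 were positive, 6 negative and 0 passed in the authors' deposited table, with a median of 0.21. The smallest p-value in that list was at SFXN3, a sideroflexin, with 0.52 ± 0.24 and a DESeq2 adjusted p-value of 0.228, as given in the authors' deposited table.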

How the data were processed

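Chromatin carrying H3K27ac was measured in 4 libraries of A375 cells. Per the submitters' processing notes, the tools were Trim Galore, cutadapt, FastQC, Bowtie2, Picard, MACS2, featureCounts, DESeq2 and bedtools 2.29.1 with build hg38. Per the file headers, the table analysed is output of DESeq2. Its mean level is a signal normalized by the authors, and its log2 fold change with standard error, its score (their quotient) and its p-values are the authors' own, per the file headers. An adjusted p-value of 1 was read as not computed, because Benjamini-Hochberg adjustment over the other 36436 regions returned the deposited values to within 1.58e-14.

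The edgeR test set out for counts per library could not be run, because the values analysed are 1 comparison. Regions repeated for several genes were merged. A tested region is one with an adjusted p-value, and the threshold was 0.05. Intervals of single regions are the change ± 1.96 standard errors, and medians carry 95% binomial rank intervals. For centring, the median of all tested regions was subtracted, p-values were taken from the normal distribution and adjusted over the same regions. The centring step was run on simulated regions with a single common shift and large added changes. This checks the computation only and does not bear on the centred p-values given here. Named regions are the one over each start, the 8 largest and 8 smallest changes among tested regions, the 5 widest, the 5 highest and those nearest the threshold, and for related lists the region with the smallest p-value. Others named (SLC25A12, SLC25A24, SLC25A29, SLC25A44 and further distant regions) were chosen after their values were seen, as were the 8 pairs. The members and lists were chosen with earlier results of these data known. The alternatives were a stricter threshold (0.01), a minimum absolute change of 1 on the log2 scale, Benjamini-Hochberg adjustment that counted the untested regions too, centring, filters on level, 1 region per gene, starts only and members added or left out. Single values of 1 gene are not reported here. Windows come from RefSeq, and 7 of the 41 genes had none. Values were computed with Python 3.11.15, pandas 2.3.3 and scipy 1.17.1.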

Additional observations from a re-analysis of the deposited data

How the results depend on the processing

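No SLC25A region passed when the changes were centred, when SLC25A1 and SLC25A20 were added or when the SLC25A46 start region was added, the last chosen after seeing the data. With untested regions included in the Benjamini-Hochberg adjustment of the deposited p-values, 0 of the 157 regions passed and the smallest adjusted p-value was 0.122. The other alternatives for this count (stricter calls, fewer regions) could only return 0 again and say nothing about its stability. Centring moved the median to -0.0066 and the share of positive regions to 47.1%, by construction, since the shared shift was subtracted; no other filter or choice of members took the median outside 0.263 to 0.373. Leaving out each of 38 genes gave medians from 0.29 to 0.33. Of 48 regions examined singly, 17 that did not pass before turned negative after centring, with adjusted p-values of 0.9999 or more. The centred values over starts were -0.0488 for SLC25A11, -0.0086 for SLC25A15, -0.15 for SLC25A16, -0.16 for SLC25A17, -0.19 for SLC25A21, -0.0376 for SLC25A27, -0.10 for SLC25A29, -0.14 for SLC25A3 and -0.0324 for SLC25A32. They were -0.10 for SLC25A35, -0.0567 for SLC25A36, -0.12 for SLC25A40, -0.0493 for SLC25A42, -0.0609 for SLC25A44 and -0.11 for SLC25A5. Away from starts they were -0.17 for SLC25A30 and -0.0013 for SLC25A37. No paired analysis was possible because the values analysed are 1 comparison without values for single libraries. Tests with a library left out, with other size factors or without a filter on counts were not run, also for lack of such values. With a median standard error of 0.29 for tested and 0.76 for other SLC25A regions, a change the size of the shared shift could not be resolved in a single region.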
